A study of Zea mays with 4 samples.

Results

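The genes described are the basic helix-loop-helix (bHLH) transcription factors of the maize root tip. They were chosen by name alone, as the protein-coding genes with an NCBI maize symbol or synonym made of bHLH and a number, whether detected or not. The rule gave 46 genes out of 34018 protein-coding genes and 48174 genes of all classes. The data are RNA-seq read counts from the terminal 1 mm of the roots of untreated B73, a maize inbred line, taken 3 days after germination. Seedlings were kept at 28 C in constant dim light of about 500 lux, and both primary and seminal roots went into every sample, so the 2 root types cannot be told apart. The 4 samples are labelled as biological replicates of this 1 group, and there is no second condition.

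A bHLH protein binds DNA through a stretch of basic residues and pairs with a second such protein through a pair of helices joined by a loop. The usual target is the E-box, a short palindromic DNA element. In maize the family is known for the regulators that switch on anthocyanin pigment genes, for barren stalk, which starts side branches, and for the male sterility factors of the anther. In Arabidopsis relatives set up root hairs, stomata, the response to light and the uptake of iron. Most numbered maize members carry no known role, and 43 of the 46 have only a placeholder symbol beside their number. Their DNA and protein sequences were not used here.

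Library totals ran from 9168397 counts in replicate 2 to 14728175 in replicate 1. Levels are given as CPM, the counts of a gene per 1e+06 counts of its library. A gene with 0 counts in 1 library could have reached 0.204 to 0.327 CPM there, the level of 3 counts. A gene with 0 counts in all 4 libraries could have reached 0.0584 CPM over them. The markers of the labelled tissue were expressed. The root cap genes RCP1 and RCP2 stood at 201 ± 37.2 and 162 ± 17.7 CPM (SD, n = 4), rth3, a root hair gene, at 65.6 ± 3.09 CPM, and the DNA replication clamp gene PCNA at 273 ± 16.5 CPM. Of the markers of other tissues, the leaf gene ssu1, the endosperm genes o2 and fl2 and the pollen gene mgs1 had no count, the summed anther and pollen markers ran from 0.220 to 0.545 CPM, and ppdk1, on the green leaf list, stood at 60.0 ± 20.6 CPM. On the endosperm list sh2 and bt2, for the subunits of a starch synthesis enzyme, passed the expression filter at 5.82 ± 0.894 and 6.04 ± 1.02 CPM, and zp27 had 1 count.

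Transcripts of 28 of the 46 bHLH genes passed edgeR's filter for expression, which here asked every library for the CPM that 10 counts give in a library of median size. This is 60.9%, beside 57.6% of all protein-coding genes and 76.2% of the 19503 protein-coding genes that, like all 46 members, have a curated RefSeq transcript record. The latter comparison was chosen after the data had been seen. Another 11 members had counts but did not pass, and 7 had no count in any library. The 18 members that did not pass held 1.20% of the family's counts. In bulk tissue a low level in all cells and a high level in few cells cannot be told apart.

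The family was a small part of the transcriptome. Its 46 genes summed to 297, 321, 323 and 323 CPM in replicates 1 to 4, with a mean of 316 ± 12.9 CPM. Replicate 1 was the lowest library, and the other 3 lay close together. The members took 0.0337% of the counts of protein-coding genes. Within the family the counts were concentrated, and the 8 highest members held 66.9% of them.

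**Figure D1:**
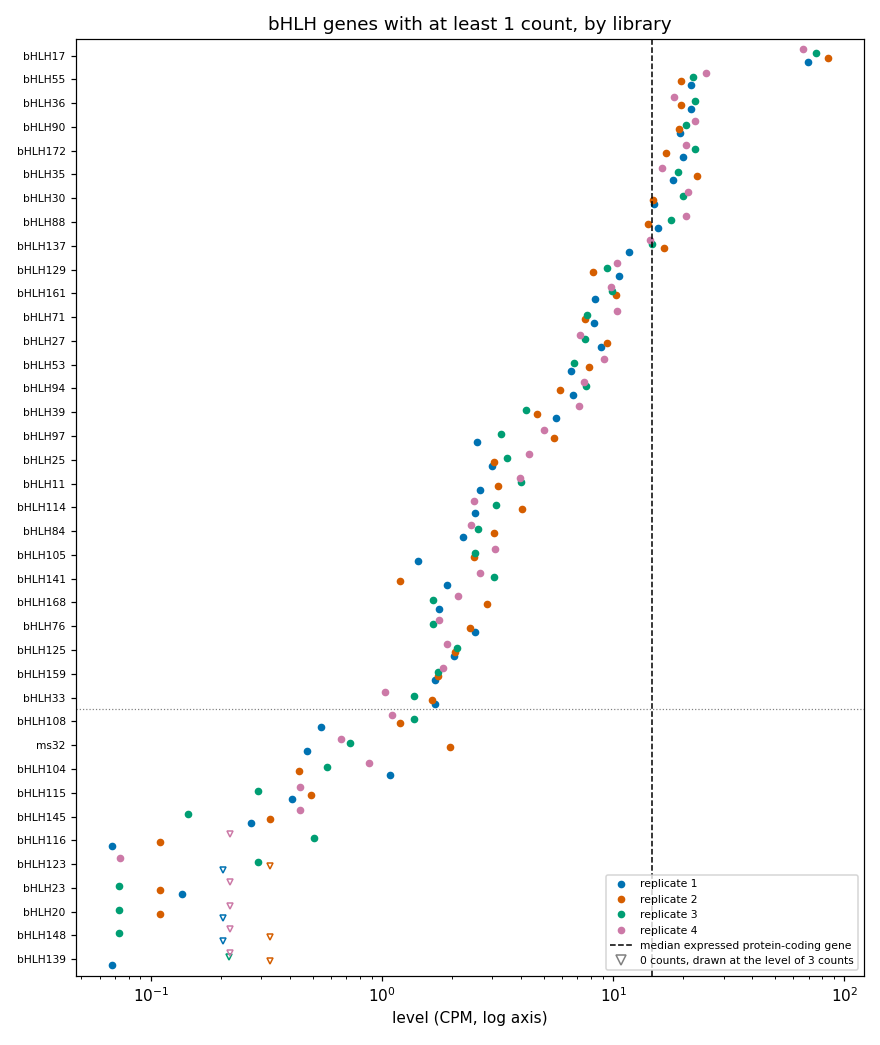
Level in CPM on a log axis of each bHLH gene with at least 1 count, with a filled point for each of the 4 libraries. Open triangles mark libraries with 0 counts, drawn at the level of 3 counts; genes under the dotted line did not pass the expression filter, and the dashed line marks the median expressed protein-coding gene at 14.6 CPM. bHLH17 stands apart at 66.4 to 84.6 CPM.

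The member with the most reads was bHLH17 (GeneID 100284039), a numbered gene with no role given in the sources used here. Its levels were 69.4, 84.6, 75.7 and 66.4 CPM in replicates 1 to 4. All 4 values lay above every value of every other member, the next highest single value being 25.2 CPM. bHLH17 alone supplied 20.6 to 26.4% of the family's summed level. It was placed at percentile 88.1 of the expressed protein-coding genes by reads.

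Each member was set against the median expressed protein-coding gene, which stood at 14.6 ± 0.678 CPM (n = 4). The test was edgeR's quasi-likelihood fit over all 19603 expressed protein-coding genes, asking for a difference of more than 2-fold, with Benjamini-Hochberg adjustment at 0.05. Transcript lengths were not used here, so all ratios between genes compare reads, of which a longer transcript gives more. bHLH17 lay 5.07-fold above the median gene, a log2 ratio of 2.34 ± 0.22 (SD, n = 4) that was positive in 4 of 4 libraries (adjusted p = 7.1e-11). It was the only member of the 28 called above, 3.57% of them, where 26.6% of all expressed protein-coding genes were called above. In the other direction 13 members, 46.4%, were called below, where the share of all genes was 25.1%, and 14 were called neither. The median log2 ratio of the 28 was -1.02, against 0 for all genes, and ran from -1.14 to -1.02 over the libraries.

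**Figure D2:**
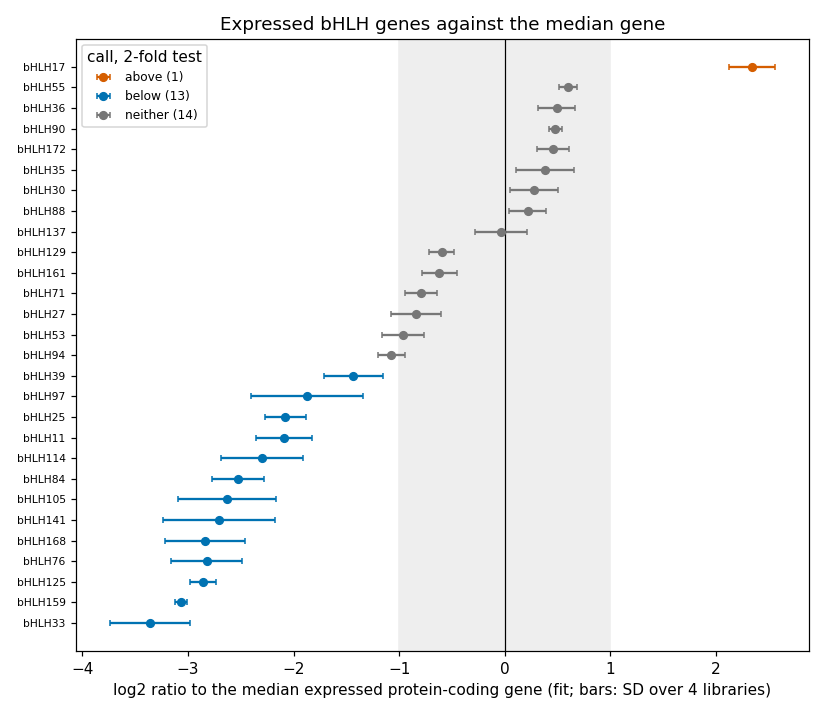
Fitted log2 ratio of each of the 28 expressed bHLH genes to the median expressed protein-coding gene, in reads, with bars for the SD over 4 libraries. The shaded band is the 2-fold range; 1 gene was called above it, 13 below it and 14 neither.

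A group of 7 members lay slightly above the median gene in 4 of 4 libraries and within the 2-fold range. bHLH55 (GeneID 100502193) had 21.7, 19.6, 22.2 and 25.2 CPM in replicates 1 to 4, a mean of 22.2 ± 2.29 CPM. bHLH36 (GeneID 100193615) had 21.7, 19.6, 22.7 and 18.3 CPM, and bHLH90 (GeneID 100282357) 19.4, 19.3, 20.6 and 22.5 CPM. The ranges of the 3 genes overlap. Within libraries bHLH55 lay above bHLH90 in 4 of 4, though in replicate 2 by only 180 against 177 counts. The place of bHLH36 changed between libraries, so it is not fixed by them. bHLH172 and bHLH35 followed at 20.0 ± 2.38 and 19.1 ± 2.84 CPM, and bHLH30 and bHLH88 at 17.8 ± 3.31 and 17.0 ± 2.76 CPM. Log2 ratios in this group ran from 0.22 for bHLH88 to 0.60 for bHLH55.

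Members in the middle of the family lay at or under the median gene without a call. bHLH137 stood at the median gene itself, with 14.4 ± 1.99 CPM, 2 libraries above it and 2 below. bHLH129 had 10.6, 8.18, 9.41 and 10.4 CPM in replicates 1 to 4, and its highest value lay under the lowest of bHLH137, 11.7 CPM. bHLH161, bHLH71, bHLH27 and bHLH53 stood at 9.57 ± 0.839, 8.44 ± 1.31, 8.23 ± 1.04 and 7.57 ± 1.17 CPM. bHLH94 stood at 6.93 ± 0.793 CPM, a log2 ratio of -1.08 that did not pass (adjusted p = 0.845). All 6 of these genes from bHLH129 to bHLH94 lay under the median gene in 4 of 4 libraries.

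The 13 members called below ran from bHLH39 at 5.41 ± 1.29 CPM to bHLH33 at 1.43 ± 0.305 CPM, 10.3-fold under the median gene. For bHLH39 the levels were 5.64, 4.69, 4.20 and 7.12 CPM in replicates 1 to 4 (log2 ratio -1.44, adjusted p = 0.00785). Its call was lost without replicate 3, at a log2 ratio of -1.31 and an adjusted p of 0.0993. The 5 lowest expressed members were bHLH168, bHLH76, bHLH125, bHLH159 and bHLH33. bHLH33 had 1.70, 1.64, 1.38 and 1.03 CPM, with an adjusted p of 2.01e-09, and rested on 73 counts in all. bHLH125 and bHLH159 hardly differed between libraries, at 1.91 to 2.10 and 1.70 to 1.84 CPM. Their CVs of 4.16% and 3.32% were under the 19.6% and 21.1% that counting noise alone would give on average. Such closeness therefore cannot show a steady level. The other 7, bHLH97, bHLH25, bHLH11, bHLH114, bHLH84, bHLH105 and bHLH141, had means between 2.20 and 4.10 CPM.

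Ordered by mean level, 24 of the 27 pairs of neighbouring expressed members overlapped in their library values. The 3 that did not were bHLH17 over bHLH55, bHLH137 over bHLH129 and bHLH125 over bHLH159. For the last pair the gap was between 1.91 and 1.84 CPM, with about 16 to 30 counts behind each value, so it is within counting error.

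The spread between replicates was tested by setting the 4 counts of a gene against Poisson counting noise, using edgeR's deviance with libraries scaled to their median gene and Benjamini-Hochberg adjustment over all 19603 genes. Of the 28 expressed members 6 varied beyond counting noise, 21.4%, beside 44.8% of all expressed protein-coding genes. Within the range of levels that the members cover, the share among 16691 genes was 39.3%. The power of this test rises with the count. The median CV over 4 libraries was 15.2% for the members and 13.2% for all genes.

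bHLH17 had the lowest adjusted p of the members, 2.24e-11, at a CV of 10.9%. bHLH35 had 18.1, 23.0, 19.0 and 16.3 CPM in replicates 1 to 4 (adjusted p = 0.000195), so that it, like bHLH17, was highest in replicate 2 and lowest in replicate 4. In CPM, 4 of the 28 expressed members showed that pattern, and 5 showed the opposite one. Of the 28, 9 were highest in replicate 2 and 10 in replicate 4. Among all expressed protein-coding genes, 21% were highest in replicate 2 and 38.3% in replicate 4. The test scales each library to its median gene, which stood at 13.9 CPM in replicate 2 and 15.5 CPM in replicate 4. The order of libraries can therefore differ on that scale. bHLH97 had 2.58, 5.56, 3.26 and 4.99 CPM, a 2.16-fold range (adjusted p = 0.0011), with replicates 2 and 4 above replicates 1 and 3. bHLH30 had 15.0, 14.8, 20.1 and 21.1 CPM (adjusted p = 0.00174), and here replicates 3 and 4 were the high ones. bHLH137 (adjusted p = 0.00807) was highest in replicate 2 at 16.6 CPM and lowest in replicate 1 at 11.7 CPM. bHLH36 (adjusted p = 0.0174) passed most narrowly.

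Some of these calls were lost when 1 library was left out, which also leaves fewer counts to test. That of bHLH35 was lost without replicate 2 (adjusted p = 0.11), that of bHLH30 without replicate 1 (0.0617), that of bHLH137 without replicate 1 or 2 (0.16 and 0.134) and that of bHLH36 without replicate 3 or 4 (0.0586 and 0.673). bHLH17 and bHLH97 passed with any 1 library left out. The widest CV of an expressed member, 37.1% for bHLH141, did not pass with all 4 libraries. It passed without replicate 1 or 4 (adjusted p = 0.049 and 0.0378). bHLH39 passed without replicate 1 (0.0429), bHLH88 without replicate 3 (0.0312) and bHLH105 without replicate 2 or 3 (0.0471 and 0.039). Replicate 2 was also the library with the fewest counts, and the summed root cap markers ran from 316 to 423 CPM over the libraries. The part of depth or of tissue makeup in these differences was not tested.

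**Figure D3:**
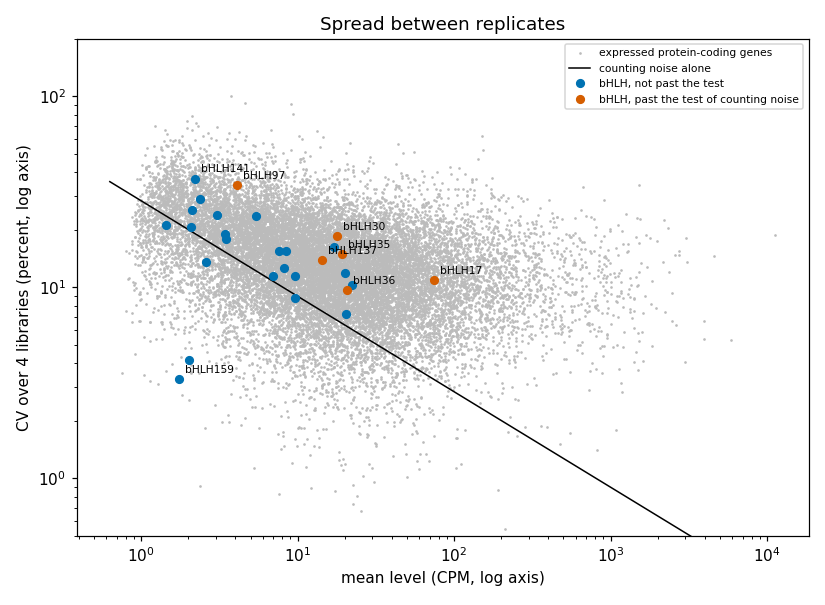
CV over 4 libraries against mean level in CPM, both on log axes, for all expressed protein-coding genes (grey) and the 28 expressed bHLH genes. The line is the CV that counting noise alone would give on average. Orange points are the 6 members that passed the test for variation beyond counting noise, among them bHLH17 with a CV of 10.9%. Some members that did not pass also lie above the line, such as bHLH141 with a CV of 37.1%.

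**Figure D4:**
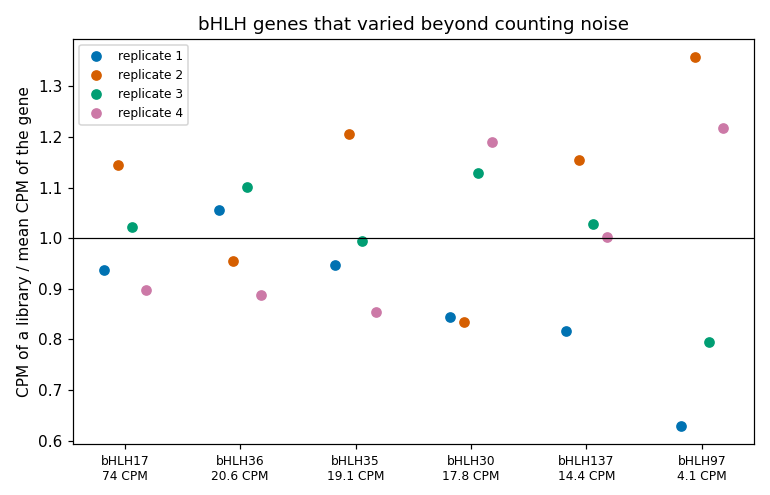
CPM of each library divided by the mean of the gene for the 6 bHLH genes that varied beyond counting noise, with 1 point per library. By CPM, replicate 2 was the highest library for 4 of the 6 genes, and bHLH30 was highest in replicate 4. Among all expressed protein-coding genes, 21% were highest in replicate 2 and 38.3% in replicate 4.

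Only 3 members have a name from a mutant or a known developmental role, and none of them passed the expression filter. BA1 (GeneID 542186), the barren stalk gene that is needed to start axillary meristems in the shoot, had 0 counts in 4 of 4 libraries, which allows up to 0.0584 CPM. ms23 (GeneID 100283549), a male sterility gene that acts early in the tapetum, the nutritive layer of the anther, also had 0 counts in all 4. ms32 (GeneID 100381970), which acts after ms23 in the same layer, had 7, 18, 10 and 9 counts, or 0.475, 1.96, 0.724 and 0.661 CPM in replicates 1 to 4. The ms32 level in replicate 2 was the highest, and the other 3 lay close together. Tested without the expression filter, ms32 varied beyond counting noise (edgeR deviance, adjusted p = 0.00811).

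The other 5 members without any count were bHLH7, bHLH24, bHLH150, bHLH165 and bHLH173. At the edge of detection, bHLH139 and bHLH148 had 1 count each and bHLH20 had 2 over the 4 libraries. bHLH23, bHLH123 and bHLH116 had 4, 5 and 9 counts, of which 7 of the 9 for bHLH116 and 4 of the 5 for bHLH123 came from replicate 3. Tested without the expression filter, bHLH116 varied beyond counting noise (edgeR deviance, adjusted p = 0.0222), on these 9 counts. Just under the filter stood bHLH108 with 0.543, 1.20, 1.38 and 1.10 CPM, which passed it when replicate 1, its lowest library, was left out. bHLH104, bHLH115 and bHLH145 had 40, 20.5 and 15 counts in all. bHLH115 was the only member with a fractional deposited value, 4.5 in replicate 2.

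No member overlapped another annotated gene in the NCBI RefSeq table of the B73 assembly Zm-B73-REFERENCE-NAM-5.0, and no 2 members were direct neighbours. The nearest pair, bHLH71 and bHLH114, had 3 genes between them. In reads bHLH71 had 7.53 to 10.4 CPM over the libraries and bHLH114 had 2.50 to 4.04 CPM.

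Genes whose products act with bHLH proteins, or downstream of them, were counted by pathway, with no test of a difference between pathways. Of 47 such names, 32 were matched to 34 genes, of which 14 were expressed, 5 above the median gene, 4 below and 5 neither. Over all protein-coding genes 57.6% were expressed, and of those 26.6% lay above and 25.1% below. The median log2 ratio of the 14 was -0.35. These lists were matched by symbol or synonym, and names shared by more than 1 gene were kept for each. The totals therefore include every gene named pac1 or a2, some of which may share only the name.

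In the anthocyanin pathway the pigment bHLH gene r1 (GeneID 100126972), which is not a numbered member, had 3 counts over 4 libraries. Its MYB partners c1 and pl1 had 8 and 4 counts and p1 none. The name pac1, looked for as the WD40 partner, belongs to 2 genes. GeneID 100285351 lay above at 250 ± 30.6 CPM and GeneID 103627556 stood at 6.56 ± 1.13 CPM without a call. Which of the 2 encodes the WD40 protein was not resolved here. The names of target genes matched 7 genes, of which 2 were expressed. GeneID 606406 lay above at 47.1 ± 10.1 CPM. It shares the name a2 with GeneID 100127010, which had 7 counts in all and was not expressed. Which of these is the pigment target was not resolved here. The other expressed gene on this list, bz2, a glutathione S-transferase gene, lay below at 1.52 ± 0.534 CPM. a1 and whp1 had no count, c2 had 1, and bz1 did not pass the filter with 27.

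On the tapetum list none of the 4 matched genes was expressed, ms7 and ms8 had no count and ms26 and ms45 had 9 counts each. Of 6 inflorescence and axillary meristem genes 3 were expressed. ra2 and bif2 lay below at 2.69 ± 0.153 and 5.28 ± 1.20 CPM, bif1 stood at 10.7 ± 0.950 CPM without a call, and tb1 and ra1, like BA1, had no count.

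Light and gibberellin partners of bHLH factors were expressed. The phytochrome gene phyA2, for a red and far-red light receptor, lay above at 91.6 ± 14.1 CPM, PhyB1 stood at 12.2 ± 2.59 CPM without a call and PhyB2 lay below at 3.55 ± 0.877 CPM. Of the DELLA genes, whose products in Arabidopsis hold some bHLH factors inactive until gibberellin removes them, D8 lay above at 95.2 ± 12.1 CPM. d9 stood at 29.4 ± 3.40 CPM without passing. Of 6 iron uptake genes, DMAS1, a deoxymugineic acid synthase gene, lay above at 56.4 ± 6.92 CPM and naat1, which acts before it, stood at 6.65 ± 1.44 CPM without a call. ys3, nas1 and nas2 had no count and ys1, the iron-phytosiderophore transporter gene, had 1.

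MYB and bZIP genes, chosen by the same kind of name, were counted for comparison, with no test of a difference. Of 40 MYB genes 10 were expressed (25%), 1 of them above the median gene, 5 below and 4 neither. Their log2 ratios had a median of -1.27. Of 33 bZIP genes 25 were expressed (75.8%), 4 above, 8 below and 13 neither, and the median log2 ratio was -0.56. By count the bHLH genes, at 60.9% expressed, lay between these families. All 40 MYB and all 33 bZIP genes also have a curated transcript record.

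**Figure D5:**
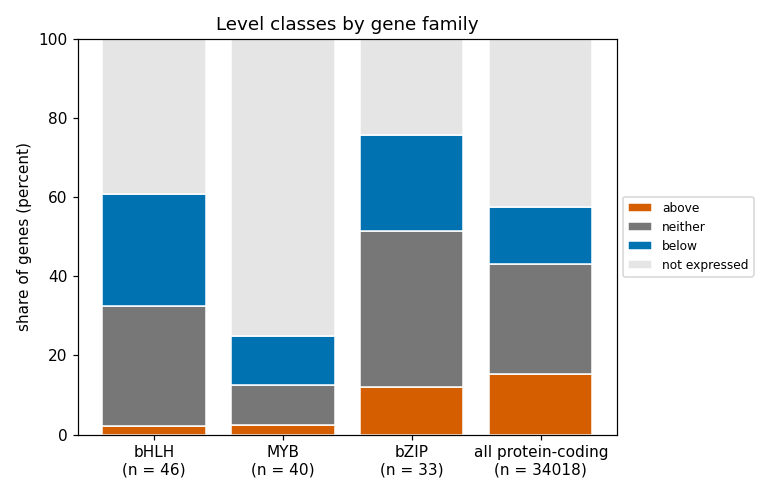
Share of genes in percent that were not expressed, or expressed and called below, neither or above against the median gene, for bHLH, MYB, bZIP and all protein-coding genes. Of all genes in each family 28 of 46 bHLH, 10 of 40 MYB and 25 of 33 bZIP genes were expressed.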

How the data were processed

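The deposited values are estimated counts per NCBI GeneID, not normalized by the authors, and a few are fractional (3062 of 48174 genes in at least 1 library, tolerance 1e-06). Per the submitters' processing notes, STAR 2.7.10b, HTSeq, UMI-tools, Trimmomatic (0.36 and 0.39), deepTools and SAMtools served for strand-specific libraries depleted of ribosomal RNA. Genome build, annotation, strand setting and collapsing of molecular tags were not stated in these sources, so the floors cover counting error only. Values after ± are SDs over the 4 samples. A further table with 5 columns matching none of the samples was not used. For levels, the p-values test a distance of over 2-fold from the median gene, with the spread between the 4 samples as error. For replicates, they test whether that spread exceeds Poisson counting noise.

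Gene names came from the RefSeq table of Zm-B73-REFERENCE-NAM-5.0, in which 48127 GeneIDs matched and 47 did not. Counts were rounded, filtered with filterByExpr (minimum count 10, total 15) and fitted in edgeR 4.0.16 with an intercept only and each library's median gene as offset. The F statistic was taken at the nearer 2-fold bound. The SD of a log2 ratio uses 0.5 added to each count. Correction for coding length, protein domains and pairs of related proteins had been planned, but protein sequences were not used here, so levels are in reads. Both procedures were tested on simulated counts. DESeq2 1.42.0, limma 3.58.1, other scalings and filters and leaving out each replicate were alternatives.

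Named genes were the 15 highest and 5 lowest expressed members by mean CPM, members with a second name tied to a role, and the 3 most variable at or above the median gene. The remaining members were named after their values were seen. The members and lists were chosen with earlier results of these data known. No 2 libraries agreed within sampling noise.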

Additional observations from a re-analysis of the deposited data

Results flagged for a closer look

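Among 32 sets of 4 library values, 2 had a library far from the other 3, where chance alone gives about 1 in 20. The level of ms32 was 1.96 CPM in replicate 2 and 0.475 to 0.724 CPM in the others, which rests on 18 counts against 7 to 10. The summed level of the 46 bHLH genes was 297 CPM in replicate 1 and 321 to 323 CPM in the others. The median gene stood at 14.7, 13.9, 14.5 and 15.5 CPM in replicates 1 to 4. Relative to it, the sum in replicate 1 lay close to that in replicate 4, so this flag holds for CPM only. The cause of either flag was not tested.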

How the results depend on the processing

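The call of bHLH17 above the median gene was kept under all 12 alternatives run. With TMM or DESeq2 scaling, DESeq2's Wald test, limma-voom or fractional genes left out, the counts stayed at 1 above and 13 below. TMM and DESeq2 scaling raised the members beyond counting noise from 6 to 7. The added member was bHLH88 (edgeR deviance, adjusted p = 0.0388 and 0.0464). With 1 CPM in 2 libraries as the filter, bHLH108 also passed, giving 29 expressed members, 1 above and 14 below. Without the 2-fold threshold 8 members lay above and 19 below. With 1 count in any library as the filter, 39 members were fitted, the reference gene fell to 8.13 CPM, 6 members lay above and 20 below, and the median log2 ratio of the members was -1.45. The 20 include 11 members that had not passed the main filter, and 9 of the 13 earlier calls below remained. The calls of bHLH25, bHLH11, bHLH39 and bHLH97 were lost (adjusted p = 0.168, 0.153, 1 and 1). That filter and the missing threshold account by construction for these shifts. Leaving out 1 replicate gave 28 to 29 expressed members, 1 above, 12 to 14 below, 5 to 7 beyond counting noise and a median log2 ratio of -1.05 to -0.98. For the 20 expressed genes that the naming rule gave, 222 of 240 results under alternatives kept their side of the threshold, 18 gained a call, from those 2 settings, and 0 reversed. That count leaves out the other 8 expressed members, among which the call of bHLH39 was also lost without replicate 3 (adjusted p = 0.0993). No paired analysis was possible because there is a single group. Correction for coding length, the domain search and related pairs were not run. Depth limits the 18 members under the filter, for which differences between libraries could rarely be detected.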
